A study of Mus musculus with 6 samples.

Results

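The cytochrome P450 (Cyp) genes were examined in epididymal white adipose tissue (WAT) of C57BL/6 mice, young adult males per the study's methods. Probe sets were taken when the array annotation gave them exactly 1 gene symbol made of Cyp, a family number, a subfamily letter and a gene number, which left out Cyp51. This gave 62 genes in 29 subfamilies, measured by 75 probe sets, out of 12394 genes with a probe set of their own and 22690 probe sets on the Affymetrix Mouse Genome 430A 2.0 array. The arrays comprised 3 control samples, from mice that were not sleep restricted, and 3 samples from mice under timed sleep restriction (TSR), which were kept awake by gentle handling for 6 h at the start of the light phase on 5 consecutive days. Tissue of both groups was taken at Zeitgeber time (ZT) 18, in the dark phase, on the last of these days, so the groups differ in the handling as well as in the lost sleep. Preservation and extraction are given as snap freezing with Trizol in the labels, but as RNAlater with a lipid tissue kit in the methods. It is not stated whether RNA of 1 animal or of several went onto an array, so the spread behind the p-values is that between these samples alone and may be technical.

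P450 enzymes are haem proteins that insert an oxygen atom into their substrates. Most sit in the endoplasmic reticulum and take electrons from NADPH through P450 oxidoreductase or cytochrome b5, while a few mitochondrial members use ferredoxin. Families 1 to 3 mainly oxidise drugs, pollutants and steroids and are best known from the liver, family 4 and the Cyp2j genes act on fatty acids and eicosanoids, and others make bile acids, steroid hormones, vitamin D and retinoid metabolites. Adipose tissue is known for its own smaller set, which includes Cyp2e1, Cyp1b1 and Cyp4b1.

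The family divided by its signal in control WAT. Members whose control mean lay above the filter included both falls, such as those of Cyp2f2, Cyp1b1 and Cyp2e1, and rises, such as those of Cyp2d22 and, only just above the filter, Cyp7b1. Among the dim members, whose control mean lay below the filter, 17 of 46 genes were higher after TSR and 0 were lower in limma without the filter. Most of the 17 are best known from the liver. By probe set 18 of 52 were higher and 0 lower, against 5.10% and 1.08% of all probe sets with a control mean this low. Control signals this dim have little room to fall. Signals are MAS5 intensities, and a probe set passed the filter when its mean log2 signal over the 6 arrays was above 5.46, the limit of the lowest 35%. Of the 75 member probe sets, 29 (24 genes) passed. In limma with Benjamini-Hochberg adjustment over all 14694 probe sets above the filter, 11 of the 29 were higher after TSR, 8 were lower and 10 were not called at an adjusted p of 0.05. The background was broad, since 46.6% of all tested probe sets were called, 25.6% higher and 21.0% lower, and after each array was centred on its median the same shares were 16.7% and 29.7%. At least 2-fold rises were found in 7 member probe sets, against 2.20% of all tested, and at least 2-fold falls in 0, against 1.21%. The 0 was also found at an unadjusted p under 0.05 and by the test that the methods name, but became 1 (Cyp2f2) after median centring and in 4 of the 6 fits that left out 1 array.

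The filter removed most of the family, and 7 of the 29 passed only through their TSR signals, of which 6 were higher. These 6 were Cyp2c29, Cyp2c50, Cyp2c70, Cyp2d9, Cyp3a11 and the brightest Cyp2b10 probe set. The fit was therefore also made without the filter, on 22626 probe sets, and it gives the adjusted p of these 6 below. In this fit 23 of the 75 member probe sets (20 genes) were higher, 8 (7 genes) were lower and 44 were not called, against 16.0% higher and 12.4% lower of all probe sets (28.3% called). At least 2-fold rises numbered 19 and falls 0, against 2.67% and 1.23% of all. Of the 52 member probe sets whose control mean lay below the filter, 18 were higher and 0 were lower, against 5.10% and 1.08% of the 8027 probe sets with a control mean this low. In 11 of the 18 every control signal was under the 25th percentile of its array. The 0 was also found at an unadjusted p under 0.05 and by the test that the methods name. Control signals this near the bottom of the array have little room to fall, so the 0 says little about falls. Of the 23 member probe sets whose control mean lay above the filter, 5 were higher and 8 were lower, against 21.9% and 18.6% of 14599, and by the test that the methods name these were 4 and 5. Every TSR array lay above every control array in 31 member probe sets and below in 11, against 24.0% and 18.9% of all. With a control mean below the filter these were 23 and 2 of 52, against 12.5% and 5.77%, and with a control mean above it 8 and 9 of 23, against 30.3% and 26.0%. Of the 33 member probe sets that were under the 25th percentile on every control array, 10 were above it on every TSR array, against 3.54% of 4572. The median log2 fold change was 0.08 in the 23 and 0.75 in the 52, against 0.02 and 0.12 in all probe sets with control means above and below the filter. Signals of different probe sets do not compare as amounts of mRNA, and signals near the bottom of an array are the least precise.

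**Figure D1:**
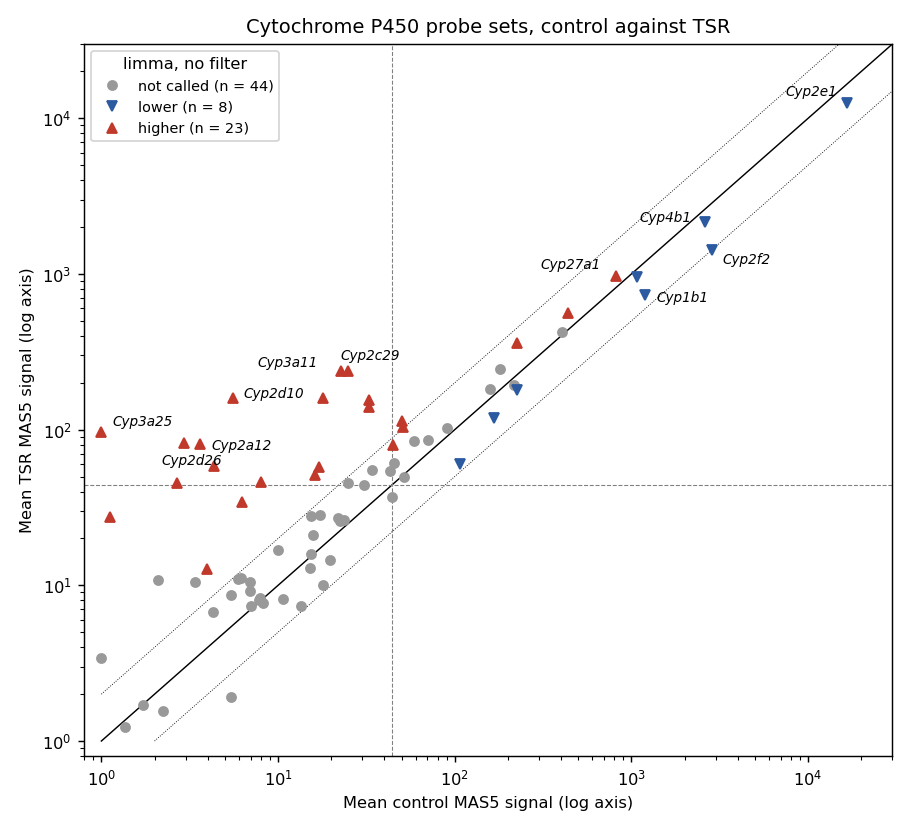
Mean MAS5 signal of the 75 cytochrome P450 probe sets in 3 control arrays (x, log axis) and 3 TSR arrays (y, log axis). The solid line marks equal means, the dotted lines a 2-fold difference and the dashed lines the filter. The 8 lower probe sets (blue) sit at the right, while 18 of the 23 higher ones (red) have control means below the filter and rise above the upper dotted line apart from Cyp2b10.

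The rise of the dim members came together with a rise of liver genes in the same arrays. Of 40 markers of hepatocytes (liver cells), 37 were measured. In each of these 37 every TSR array lay above every control array, against 24.0% of all probe sets. Most of these markers are in the study's own list of genes changed at least 2-fold in the same arrays. Their counts are therefore a description and no independent support. In the fit without the filter 36 of the 37 were higher, against 16.0% of all probe sets, and Tfr2, a transferrin receptor gene, was not called (adjusted p = 0.115 in limma). Alb, which encodes serum albumin, gave signals of 129, 98.0 and 161 in control and 3178, 3360 and 3077 after TSR. The sum of the 37 signals lay between 1002 and 1099 in control arrays and between 17597 and 18259 in TSR arrays, and the marker lowest in control, Fgb (a fibrinogen chain), lay close to the lowest deposited value of 1. The median log2 deviation of the hepatocyte markers from their control mean was 3.92, 4.01 and 4.10 in the 3 TSR arrays, and that of the 52 P450 probe sets with a control mean below the filter was 0.86, 0.88 and 1.03. For the 23 P450 probe sets with a control mean above the filter it was 0.02, 0.07 and 0.16. In these bulk samples a change in the number of cells of a type and a change in RNA per cell cannot be told apart, and the part of hepatocyte RNA in the P450 values was not tested.

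The tissue itself carried its markers. Of 8 adipocyte markers measured, 4 were lower, among them Adipoq (adiponectin, between 15545 and 20944 in control and between 11541 and 14533 after TSR), 3 were higher (Lep, Lipe and Pparg) and 1 was not called. Of all tested probe sets 21.0% were lower and 25.6% higher. Among markers of other organs, 5 of 5 intestine genes, 2 of 6 kidney tubule, 2 of 6 pancreas, 2 of 5 epididymis and 1 of 5 testis and adrenal genes lay below the 25th percentile on all 6 arrays by their brightest probe set. In the fit without the filter Adam7 (epididymis), Cela1 (pancreas) and Mc2r (from the testis and adrenal list) were higher, and Ctrb1 (pancreas) and Hsd17b3 (testis) were lower. Of all probe sets 16.0% were higher and 12.4% lower in this fit. Mc2r already had a clear signal in control, with means of 539 in control and 663 after TSR. Any part of these organs in the P450 values was not tested. In the bacterial control RNA dap, the 5′ minus 3′ log2 signal was 1.26 higher in TSR arrays, and in actin it was 0.55 higher, and the part of this difference in the P450 values was not tested.

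The xenobiotic subfamilies (Cyp1 to Cyp3 without Cyp2j) held 41 probe sets. In the fit without the filter 16 were higher, 4 were lower and 21 were not called, against 16.0% higher and 12.4% lower of all. The Cyp2c genes, which oxidise drugs and make epoxides of arachidonic acid, had the most risers, with 6 of 11 genes higher and 0 lower. Cyp2c29, a major Cyp2c of mouse liver, gave signals of 26.2, 26.3 and 22.4 in control and 252.5, 190 and 276 after TSR. The TSR arrays lay far above the control arrays, a 9.61-fold rise in mean signal (from 24.9 ± 2.23 to 239.5 ± 44.6, SD, n = 3 each). The log2 fold change was 3.25 ± 0.19 (SE, adjusted p = 2.96e-05 in limma without the filter).

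Cyp2c70, which makes the muricholic acids of the mouse, rose in every sample as well. Its signals were 33.7, 24.5 and 39.4 in control and 133, 171 and 158 after TSR (log2 fold change 2.27, adjusted p = 0.000308 without the filter). Cyp2c50, an epoxygenase, gave 20.5, 12.9 and 20.2 in control and 177, 108.5 and 191 after TSR. On each control array its signal was under the 25th percentile, which was between 20.9 and 25.3 over the 6 arrays. Its fold is therefore a lower bound against that percentile, at least 6.94-fold higher (adjusted p = 0.000294 without the filter).

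A further 3 Cyp2c genes stayed below the filter and were called in the fit without it. Cyp2c37, an epoxygenase of the liver, gave 2.86, 3.37 and 1.77 in control and 44.5, 55.2 and 37.5 after TSR, at least 2.03-fold higher (adjusted p = 0.00045). Cyp2c68 gave 13.3, 13.3 and 21.8 against 42.7, 51.0 and 60.5 (log2 fold change 1.70, adjusted p = 0.00696). Cyp2c54 gave 10.4, 1.72 and 11.8 against 41.2, 42.3 and 54.4, at least 2.05-fold higher (adjusted p = 0.0213), and its groups did not overlap. This call was lost when TSR replicate 1, 2 or 3 was left out, with adjusted p of 0.063, 0.0596 and 0.0754.

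The other Cyp2c genes stayed dim and were not called. Cyp2c23, an epoxygenase best known from the kidney, had no overlap between groups, with a control mean of 24.9 and a TSR mean of 45.2 (adjusted p = 0.0519). Cyp2c55 and Cyp2c65, which are best known from the gut, had TSR means of 6.70 and 11.1, and Cyp2c39 and Cyp2c38 had TSR means of 10.6 and 44.2. In all of these apart from Cyp2c23 the groups overlapped.

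Of 7 Cyp2d genes, 4 were higher and 0 were lower in the fit without the filter, against 16.0% and 12.4% of all probe sets. Cyp2d9, a testosterone 16-alpha-hydroxylase of male mouse liver, gave signals of 27.0, 28.8 and 42.7 in control and 153, 145 and 120.1 after TSR (4.24-fold, log2 fold change 2.11 ± 0.23 SE, adjusted p = 0.000479 without the filter). Cyp2d10 lay below the filter, with 9.86, 2.67 and 4.04 in control and 174, 161.5 and 144 after TSR, at least 7.17-fold higher (adjusted p = 0.000283). Cyp2d26, also a liver P450, moved from 6.21, 1 and 1.55 to 73.7, 84.7 and 86.4, at least 3.67-fold higher (adjusted p = 0.00112). Cyp2d10 and Cyp2d26 rose from below the 25th percentile and Cyp2d9 from above it, and no TSR array overlapped with a control array.

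Cyp2d22 differed from them in its control signal, which was clear, and in the size of its rise. The brighter of its probe sets gave 464, 390 and 454 in control and 567, 544 and 573 after TSR (log2 fold change 0.37, adjusted p = 0.00387), and the dimmer gave 190, 218.5 and 265 against 370.5, 361.5 and 345 (log2 fold change 0.69, adjusted p = 0.00141). Neither overlapped. Cyp2d12, Cyp2d34 and the transcribed pseudogene Cyp2d13 were not called, and their groups overlapped. In the RefSeq order of genes these 7 lie in 1 cluster of 18 Cyp2d genes and pseudogenes. The uncalled genes lie together there, with Cyp2d22, Cyp2d10 and Cyp2d9 before them and Cyp2d26 after them.

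Of the 5 Cyp3a genes, which include the main drug oxidases of the liver, 2 were higher, against 16.0% of all probe sets without the filter. Cyp3a11, the principal Cyp3a of adult mouse liver and a target of the xenobiotic receptor Nr1i2, gave signals of 19.1, 19.8 and 29.0 in control and 226, 226 and 263 after TSR (10.5-fold, from 22.6 ± 5.52 to 238 ± 21.4, SD, n = 3 each, log2 fold change 3.42, adjusted p = 3.43e-05 without the filter). Cyp3a25 was at the lowest deposited value of 1 on every control array and gave 99.4, 82.5 and 109 after TSR, at least 4.34-fold higher (adjusted p = 3.09e-05). Its fitted log2 fold change of 6.59 rests on that lowest value and is no measured fold.

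Their neighbours Cyp3a16 and Cyp3a44, P450s of fetal and female liver, stayed below the 25th percentile on all 6 arrays. Cyp3a16 had means of 1.72 in control and 1.70 after TSR, and Cyp3a44 had means of 7.77 and 8.11. Cyp3a13, which is also known from the intestine, gave 21.5, 14.5 and 15.8 in control and 26.8, 23.0 and 35.3 after TSR without overlap, but was not called (adjusted p = 0.172).

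Among the 4 neighbours Cyp3a11 and Cyp3a25 were higher, while Cyp3a16 and Cyp3a44 stayed below the 25th percentile on all 6 arrays. Cyp2f2 had the largest fall among the called P450s. The promoters of these genes are shown because their calls differ. They are RefSeq windows of the assembly GRCm38.p6, from 250 bases before to 50 bases after the start, on the strand of the gene, and capitals mark the letters AGGTCA or their reverse complement, the core that many nuclear receptors bind.
Cyp3a11 promoter (chr5:145879805-145880104, minus strand): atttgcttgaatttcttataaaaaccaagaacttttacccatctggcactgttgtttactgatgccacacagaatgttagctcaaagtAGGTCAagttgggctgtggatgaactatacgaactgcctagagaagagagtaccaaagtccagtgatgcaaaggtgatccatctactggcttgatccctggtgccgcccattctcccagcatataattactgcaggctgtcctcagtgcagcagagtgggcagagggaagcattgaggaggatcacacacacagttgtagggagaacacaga
Cyp3a25 promoter (chr5:146009568-146009867, minus strand): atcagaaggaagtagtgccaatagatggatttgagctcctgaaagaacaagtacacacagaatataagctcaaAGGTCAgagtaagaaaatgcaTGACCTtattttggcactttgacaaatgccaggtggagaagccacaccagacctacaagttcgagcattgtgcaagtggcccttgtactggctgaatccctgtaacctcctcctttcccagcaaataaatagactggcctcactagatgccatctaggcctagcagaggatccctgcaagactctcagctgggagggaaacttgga
Cyp3a16 promoter (chr5:145469674-145469973, minus strand): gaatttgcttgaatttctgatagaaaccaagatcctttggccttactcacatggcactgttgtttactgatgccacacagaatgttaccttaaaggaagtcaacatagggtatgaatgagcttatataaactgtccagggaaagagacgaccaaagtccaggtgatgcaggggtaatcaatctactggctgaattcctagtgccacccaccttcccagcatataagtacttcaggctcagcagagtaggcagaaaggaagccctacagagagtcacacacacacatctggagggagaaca
Cyp3a44 promoter (chr5:145805825-145806124, minus strand): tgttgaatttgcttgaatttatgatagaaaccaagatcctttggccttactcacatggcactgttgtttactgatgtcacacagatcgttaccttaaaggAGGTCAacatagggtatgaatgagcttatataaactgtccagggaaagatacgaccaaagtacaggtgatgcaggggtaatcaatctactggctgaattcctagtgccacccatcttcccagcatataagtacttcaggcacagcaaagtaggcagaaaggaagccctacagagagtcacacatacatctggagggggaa
Cyp2f2 promoter (chr7:27119705-27120004, plus strand): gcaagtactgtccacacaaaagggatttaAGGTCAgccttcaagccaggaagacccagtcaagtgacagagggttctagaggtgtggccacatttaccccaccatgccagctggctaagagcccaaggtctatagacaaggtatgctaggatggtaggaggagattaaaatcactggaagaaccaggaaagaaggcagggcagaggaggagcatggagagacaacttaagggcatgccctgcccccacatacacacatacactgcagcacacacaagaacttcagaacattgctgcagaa
AGGTCA occurred in Cyp3a11 at -162, in Cyp3a25 at -177 and -156, and in Cyp3a44 at -150 from the start, and was not found in the window of Cyp3a16. In Cyp2f2 it lay at -221. Over the aligned windows Cyp3a16 and Cyp3a44 shared 93.4% of positions, Cyp3a11 shared 74.4% with Cyp3a16 and 71.2% with Cyp3a44, and Cyp3a25 shared 50.6% with Cyp3a11.

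Of the 62 genes, 45 had a promoter in the table. Member counts are of genes with a match in any of their promoters, whereas the shares of all are of single promoters. AGGTCA was in the promoters of 12 of the 45 genes (13 of their 52 promoters), and in 16.3% of all 32851 promoters. It was in 5 of the 16 genes that rose (Cyp2c29, Cyp2c70, Cyp2j5, Cyp3a11 and Cyp3a25), in 1 of the 7 that fell (Cyp2f2) and in 6 of the 22 not called. GTTAAT, part of the site of HNF1 factors, was in 3 of the 45 and in 7.10% of all promoters. The E-box CACGTG was in 2 of the 45 and in 7.15% of all, TNGCGTG, which AHR and ARNT can bind, was in 1 of the 45 (Cyp2c68) and in 5.07% of all, and the D-box letters TTATGTAA and TTACGTAA and the C/EBP letters TTGCGCAA were in 0 of the 45 and in 0.938%, 0.119% and 0.183% of all. All motifs were searched on both strands. A match is a run of letters and not a shown binding site.

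Among the other xenobiotic genes that are dim in control WAT, Cyp1a2, the liver P450 that oxidises caffeine, gave 8.80, 2.998 and 1.26 in control and 60.9, 58.1 and 56.7 after TSR, at least 2.64-fold higher (adjusted p = 0.00334). Cyp2a12, a steroid hydroxylase of the liver, moved from 3.74, 3.26 and 3.90 to 63.7, 92.8 and 85.1, at least 3.58-fold higher (adjusted p = 0.000108). Both rose without overlap.

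Cyp2b10, a target of the receptor Nr1i3, gave a smaller and less certain difference. Its brightest probe set gave 35.2, 56.3 and 42.2 in control and 95.9, 61.6 and 80.0 after TSR (log2 fold change 0.83, adjusted p = 0.0475 without the filter and 0.0179 above it). The call above the filter was lost without control replicate 1 (adjusted p = 0.0578), without TSR replicate 1 (0.0743) and by the test that the methods name (0.0911). Its other probe sets were not called, with adjusted p of 0.0532 and 0.935 in the fit without the filter. The other Cyp2b genes, Cyp2b9, Cyp2b13 and Cyp2b19, overlapped between groups.

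**Figure D2:**
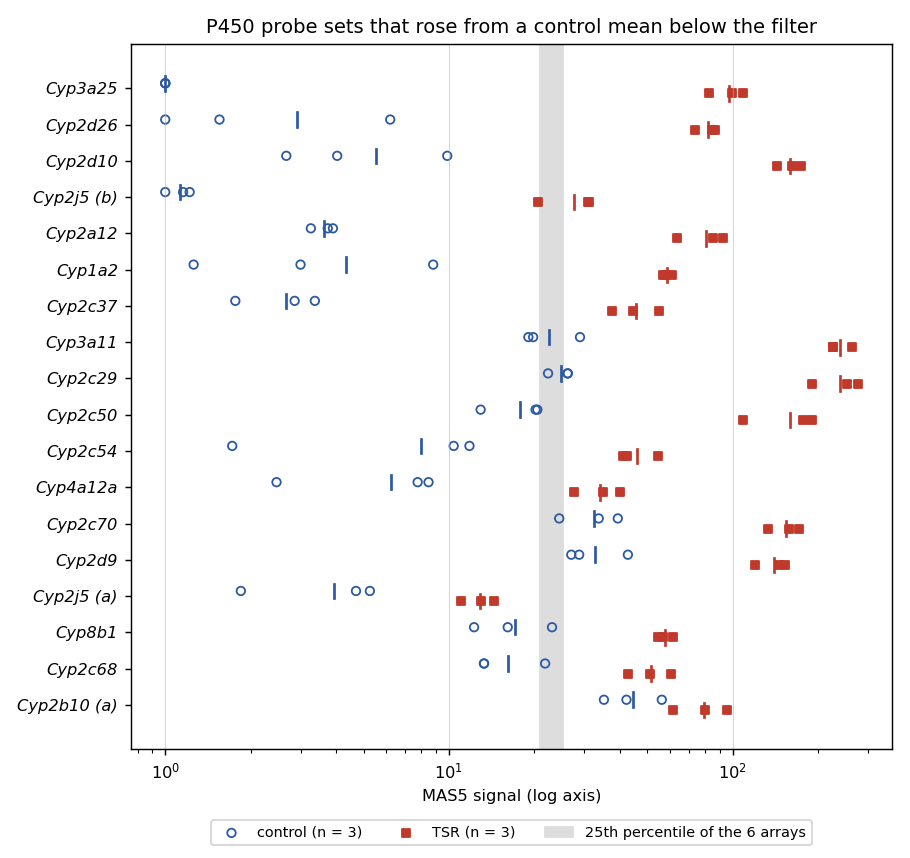
MAS5 signal (log axis) in each control (open circles) and TSR array (filled squares) of the 18 P450 probe sets with a control mean below the filter that were higher in limma without the filter. Vertical bars are means, the grey band spans the 25th percentiles of the 6 arrays, and (a) and (b) number the probe sets of a gene from the highest control mean. No TSR array overlaps with a control array in any of the 18. They were chosen by their call, so this adds no support. Cyp2j5 (a) stays below the band on every array.

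Some xenobiotic P450s have a clear signal in control WAT, and several of these fell. Cyp2f2, known as the naphthalene-activating P450 of airway club cells, gave signals of 2819, 2934.5 and 2806 in control and 1456, 1454 and 1384 after TSR. The groups were far apart and their spread was small, with means of 2853 ± 70.9 and 1431 ± 41.0 (SD, n = 3 each). The signal decreased by 49.8% (log2 fold change -0.995 ± 0.04 SE, adjusted p = 7.58e-07 in limma), just short of the 2-fold limit. The 5 club cell markers were measured, with summed signals between 130.1 and 200.1 in control and between 95.3 and 156 after TSR. Of the 5, 1 was lower and 4 overlapped between groups and were not called in the fit without the filter. The lower one was the defining marker Scgb1a1, which gave 33.2, 40.7 and 29.1 in control and 16.8, 2.11 and 5.50 after TSR (adjusted p = 0.035 in the fit without the filter). Its control mean lay below the filter, and its signal was under the 25th percentile on every TSR array. Whether the tissue held club cells, and any part of them in the fall of Cyp2f2, was not tested.

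Cyp1b1, a P450 of oestrogens and polycyclic hydrocarbons that is expressed outside the liver and induced through the receptor Ahr, fell by both of its tested probe sets. The brighter gave 1251, 1144 and 1194 in control and 737, 749 and 725 after TSR (log2 fold change -0.70 ± 0.05 SE, adjusted p = 1.08e-05). The dimmer gave 163, 158 and 178 against 120.3, 105 and 129.5 (log2 fold change -0.49, adjusted p = 0.00788), and a probe set below the filter was not called. Of 6 fibroblast and progenitor markers, 4 were lower and 1 was higher, against 21.0% and 25.6% of all tested probe sets. The summed signals of these markers lay between 27817 and 30964 in control and between 18793 and 20667 after TSR. Their part in the fall of Cyp1b1 was not tested.

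Cyp2e1, which oxidises ethanol, acetone and fatty acids and is known from liver and fat cells, had one of the strongest signals on the array. It gave 16200.3, 18766 and 14897 in control and 12530.4, 13989 and 10845 after TSR, without overlap. Its mean decreased by 25.1% (log2 fold change -0.42 ± 0.11 SE, adjusted p = 0.0113). This call was lost after quantile normalization (log2 fold change -0.06, adjusted p = 0.355) and by the test that the methods name (adjusted p = 0.0976). Cyp1a1, the best-known target of Ahr, gave 68.9, 66.0 and 76.0 in control and 75.0, 87.9 and 95.4 after TSR and was not called (adjusted p = 0.150). Cyp2s1, a P450 of epithelia, was not called either, with 92.3, 77.1 and 101.6 against 117, 89.0 and 103.

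**Figure D3:**
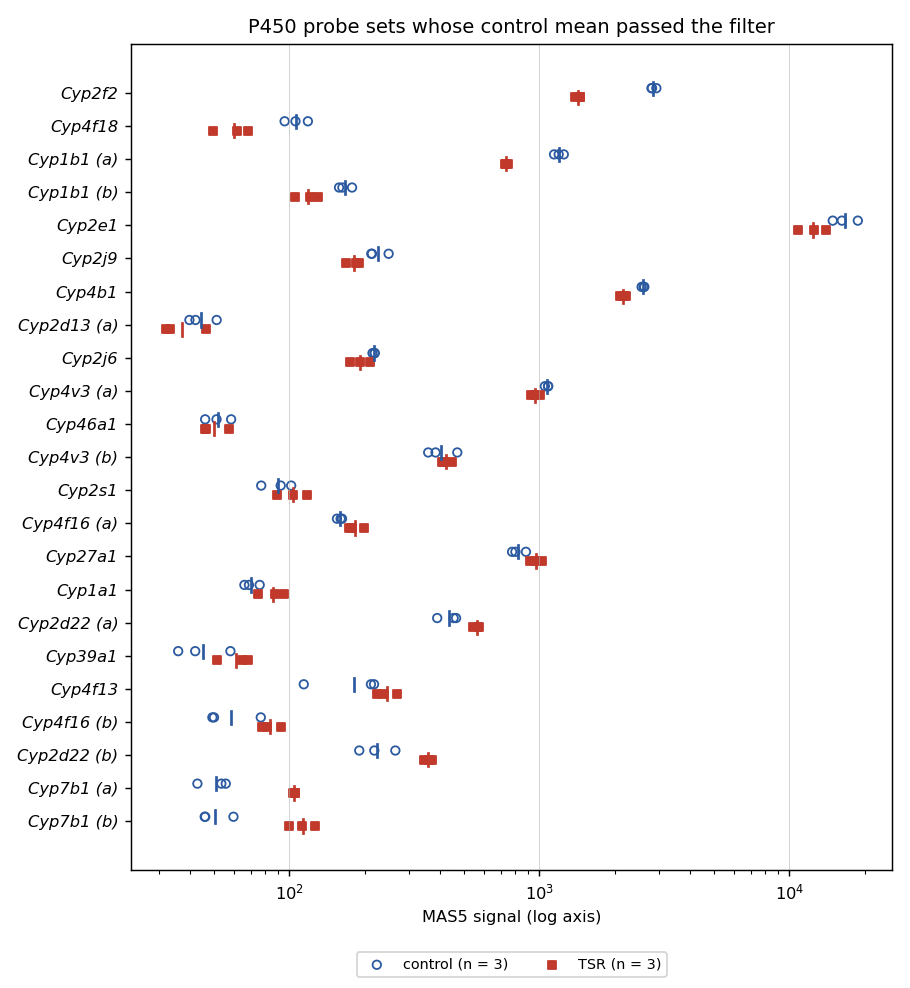
MAS5 signal (log axis) in each control (open circles) and TSR array (filled squares) of the 23 P450 probe sets with a control mean above the filter, ordered by log2 fold change from the largest fall (Cyp2f2) to the largest rise (Cyp7b1). Vertical bars are means, and (a) and (b) number the probe sets of a gene from the highest control mean. The groups separate without overlap in 17 of the 23, with 9 lower and 8 higher after TSR.

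The fatty acid and eicosanoid subfamilies held 17 probe sets, of which 9 passed the filter. Of these 9, 0 were higher, 4 were lower and 5 were not called, against 25.6% higher and 21.0% lower of all tested. The filtered median log2 fold change was -0.16. In the fit without the filter 3 of the 17 were higher and 4 were lower, against 16.0% and 12.4% of all, with a median of 0.20. Cyp4b1, a hydroxylase of short fatty acids, gave 2562, 2627 and 2607 in control and 2219, 2160.1 and 2095 after TSR. This fall was small and far larger than the spread between samples (log2 fold change -0.27 ± 0.04 SE, adjusted p = 0.000893). Cyp4f18, which inactivates leukotriene B4 in myeloid cells, gave 95.7, 106 and 118.5 in control and 68.3, 49.4 and 61.9 after TSR (log2 fold change -0.84, adjusted p = 0.00348). In the same arrays 6 of 6 macrophage markers fell, against 21.0% lower of all tested probe sets. These markers had a median log2 fold change of -0.56 and summed signals between 18751 and 19512 in control and between 12855 and 13062 after TSR. Their part in the fall of Cyp4f18 was not tested.

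Smaller falls were found in Cyp2j9 and Cyp4v3, and neither call held under every alternative. Cyp2j9, an epoxygenase, gave 212.5, 214 and 249 in control and 169, 190 and 184 after TSR (log2 fold change -0.31, adjusted p = 0.0287). The call was lost without control replicate 3 (adjusted p = 0.0941), TSR replicate 1 (0.0993) or TSR replicate 3 (0.054) and by the test that the methods name (0.0734). Cyp4v3, a fatty acid hydroxylase, gave 1051, 1083 and 1083 against 1005, 923 and 957 by its brighter probe set (log2 fold change -0.16, adjusted p = 0.0265), which was lost without control replicate 2 (0.0603) or 3 (0.0658) without TSR replicate 2 (0.087) or 3 (0.0615), and in limma with no trend on signal (0.0603). Its dimmer probe set overlapped between groups (adjusted p = 0.563).

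Cyp2j6, a neighbour of Cyp2j9, was below every control array in each TSR array, with 215, 219 and 219 against 192, 174 and 210.5, but was not called (adjusted p = 0.142). It passed after quantile normalization (adjusted p = 0.0249) and after median centring (0.0265). Cyp4f13 gave 218, 114 and 212 in control and 239, 270 and 225 after TSR and was not called (adjusted p = 0.106), and the brighter Cyp4f16 probe set gave 162, 160.2 and 155 against 177, 173 and 198 (adjusted p = 0.117). The dimmer Cyp4f16 probe set (adjusted p = 0.0529) passed only when control replicate 1 was left out (0.0103).

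The dim members of these subfamilies held 3 risers in the fit without the filter. Cyp4a12a, the arachidonic acid hydroxylase of male kidney and liver, gave 7.76, 8.47 and 2.47 in control and 39.9, 27.6 and 34.99 after TSR, at least 1.52-fold higher (adjusted p = 0.0104). Cyp2j5, an epoxygenase of kidney and liver, gave 1.16, 1.22 and 1 against 20.6, 31.1 and 30.8 by one probe set, at least 1.22-fold higher (adjusted p = 0.000325). The other Cyp2j5 probe set was below the 25th percentile on all 6 arrays and its call (adjusted p = 0.0413) was lost in 8 of 10 alternatives, among them each array left out in turn apart from control replicate 2, with adjusted p between 0.0598 and 0.110. Cyp4a14, Cyp4a31, Cyp2j13, Cyp4f14 and Cyp4f15 were not called.

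The bile acid and sterol subfamilies held 8 probe sets. In the fit without the filter 4 of these were higher and 0 were lower, against 16.0% and 12.4% of all. Cyp7b1, the oxysterol 7-alpha-hydroxylase, rose about 2-fold by both probe sets. Their control means of 50.6 and 50.5 lay only just above the filter and below the array medians. The first gave 55.6, 42.8 and 53.4 in control and 105, 103 and 106 after TSR (2.07-fold, log2 fold change 1.06 ± 0.15 SE, adjusted p = 0.000642), and the second gave 45.8, 46.1 and 59.7 against 99.7, 112 and 126 (2.23-fold, log2 fold change 1.16, adjusted p = 0.000625). These were the at least 2-fold rises of the family whose control mean passed the filter. Cyp8b1, the sterol 12-alpha-hydroxylase that makes cholic acid in the liver, gave 12.3, 23.1 and 16.1 in control and 56.9, 54.7 and 61.6 after TSR (3.37-fold, adjusted p = 0.00444 in the fit without the filter).

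Cyp27a1, the mitochondrial sterol 27-hydroxylase, was the brightest member that rose. It gave 777, 801 and 883 in control and 920.1, 972.5 and 1019 after TSR (log2 fold change 0.24 ± 0.06 SE, adjusted p = 0.0126), without overlap. The call was lost after median centring (log2 fold change 0.14, adjusted p = 0.130) and by the test that the methods name (adjusted p = 0.0635). Cyp7a1, the rate-limiting enzyme of bile acid synthesis, gave 10.7, 13.0 and 22.3 in control and 25.4, 28.0 and 30.5 after TSR by its brighter probe set, without overlap, and was not called (adjusted p = 0.114). Cyp39a1, an oxysterol 7-alpha-hydroxylase, gave 35.9, 42.0 and 58.1 against 64.5, 51.2 and 68.1 and passed only when control replicate 3 was left out (adjusted p = 0.131 with it and 0.0477 without it). Cyp46a1, the cholesterol 24-hydroxylase of neurons, overlapped between groups, with means of 51.8 and 49.95.

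The steroidogenic subfamilies showed no called change in 5 probe sets. Cyp11a1, which cleaves the side chain of cholesterol, gave 4.45, 1.13 and 1.13 in control and 1.49, 1.64 and 1.57 after TSR. Cyp17a1, the 17-alpha-hydroxylase, gave 5.28, 10.6 and 5.05 against 7.47, 5.33 and 18.8. Both were below the 25th percentile on all 6 arrays, so that no level above the bottom of the array was measured.

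Cyp11b2, the aldosterone synthase, gave 23.1, 8.26 and 14.5 in control and 24.3, 16.4 and 6.78 after TSR. Cyp21a1, the steroid 21-hydroxylase, gave 55.6, 32.0 and 41.7 against 61.7, 43.0 and 58.6 by its brighter probe set (adjusted p = 0.278), and its dimmer probe set, with means of 13.5 and 7.41, moved the other way and was not called (adjusted p = 0.161). The vitamin D and retinoid genes Cyp24a1, Cyp27b1 and Cyp26a1 gave 4 probe sets below the 25th percentile on all 6 arrays, and 0 were called. Absence of a call does not show that these genes did not change.

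By subfamily, the directions were mixed within gene neighbourhoods. In the order of RefSeq genes, Cyp2f2 (lower) and Cyp2a12 and Cyp2b10 (higher) lie in 1 cluster of 17 genes, Cyp2j5 (higher) next to Cyp2j9 (lower), and Cyp4a12a (higher) in a cluster with Cyp4b1 (lower). Cyp1a2 rose, while its neighbour Cyp1a1 was not called. Close copies can share probes, so a difference within a subfamily may be blurred, and 7 of the 75 probe sets carry a suffix of the array maker for probes that match several transcripts.

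**Figure D4:**
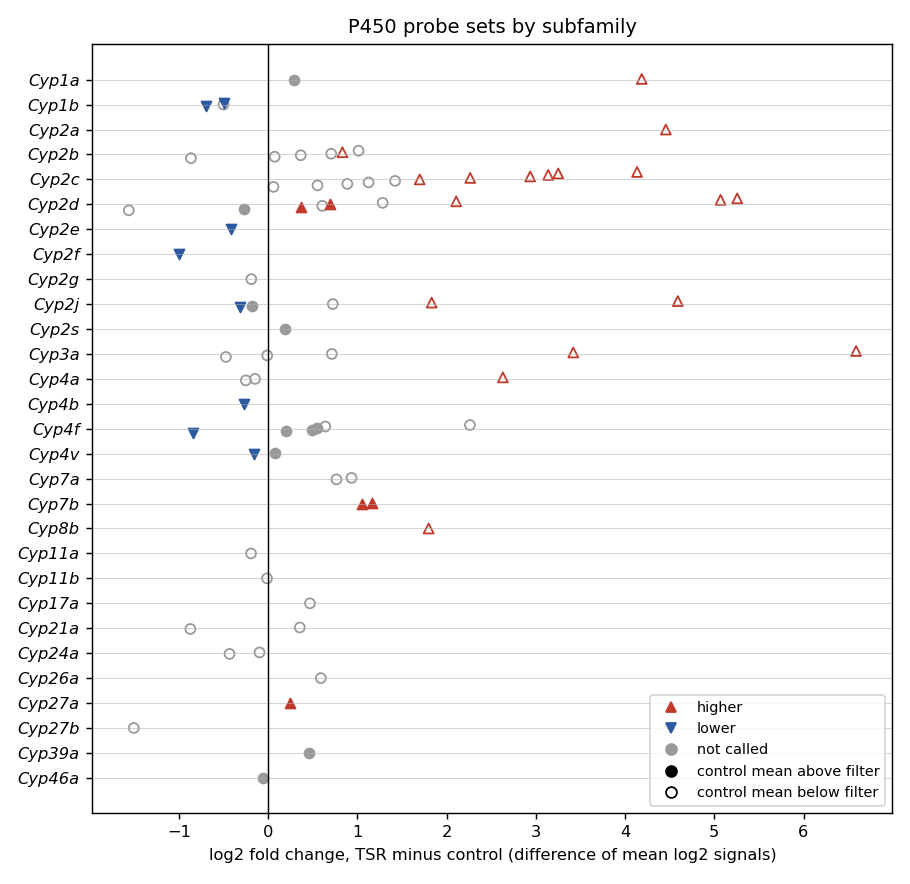
Log2 fold change (difference of mean log2 signals, TSR minus control) of the 75 P450 probe sets, by subfamily, with calls of limma without the filter. Filled symbols have a control mean above the filter and open symbols below it. The rises above 2 on the log2 scale are open symbols of Cyp1a, Cyp2a, Cyp2c, Cyp2d, Cyp2j, Cyp3a, Cyp4a and the uncalled Cyp4f14, whereas the 8 falls are filled and lie between -0.995 and -0.16.

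The partners of the P450s carry electrons to them or make and break down haem. Of 21 listed genes 18 were measured and all 18 passed the filter by their brightest probe set, with 9 higher, 2 lower and 7 not called, against 25.6% higher and 21.0% lower of all tested. Their median log2 fold change was 0.19. By these probe sets 0 of the 18 passed 2-fold, while a dimmer probe set of Cyb5r3, a cytochrome b5 reductase, was 2.003-fold higher (from a mean of 149.5 to 299.5, adjusted p = 0.000126). Hmox1, the inducible haem oxygenase, rose from 104, 78.0 and 113 to 172, 153 and 154.5 (log2 fold change 0.72, adjusted p = 0.00461). Cyb5b, the cytochrome b5 of the outer mitochondrial membrane, rose from a mean of 3117 to 4345 (log2 fold change 0.48, adjusted p = 2.41e-05), while Cyb5a, the microsomal cytochrome b5 and the brightest of the list, fell from 13030.3 to 10479 (log2 fold change -0.31, adjusted p = 0.00161). Alas1, the first enzyme of haem synthesis, rose by 0.20 on the log2 scale (adjusted p = 0.0182). Pgrmc2 fell by its brighter probe set (log2 fold change -0.14, adjusted p = 0.037) and rose by its dimmer one (0.35, adjusted p = 0.0361), so its direction is open to the choice of probe set.

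Of 36 listed regulators of P450 genes 33 were measured, and 20 passed the filter by their brightest probe set. Of the 20, 9 were higher, 6 lower and 5 not called, against 25.6% higher and 21.0% lower of all tested. Nr1d2, a clock repressor, fell from a mean of 1185 to 369 (log2 fold change -1.68, adjusted p = 2.37e-06), and Dbp, a clock-driven factor of the D-box, fell from 697 to 372 (log2 fold change -0.92, adjusted p = 0.000183). Ahr, the receptor that drives Cyp1a1 and Cyp1b1, fell from 591 to 405 by its brighter probe set (log2 fold change -0.54, adjusted p = 0.000156). Its dimmer probe set moved the other way without overlap, from a mean of 27.9 to 48.0, and was not called (adjusted p = 0.115 in limma without the filter). Cebpb fell by its brighter probe set (log2 fold change -0.17, adjusted p = 0.0234) and rose by its dimmer one (0.25, adjusted p = 0.0162). Ppargc1a, a coactivator, rose by 1.04 on the log2 scale by its brightest probe set (adjusted p = 2.44e-05). Its next brightest probe set differed by 0.14 and was not called (adjusted p = 0.348), while the others rose by 0.59 to 0.83. Nr1h3, the oxysterol receptor LXR-alpha, rose by 0.75 (adjusted p = 0.000202), and Cebpa, the brightest of the list, by 0.40 (adjusted p = 0.000289).

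The receptors that drive Cyp3a11 and Cyp2b10 in the liver were dim in both groups. The brighter probe set of Nr1i2 (PXR) had means of 18.4 in control and 15.8 after TSR, and Nr1i3 (CAR) had means of 3.57 and 3.77, and neither was called. Hnf4a, a nuclear receptor of liver cells, gave 29.3, 7.40 and 10.5 in control and 52.5, 60.8 and 75.4 after TSR by 1 of its 4 probe sets (adjusted p = 0.015 in the fit without the filter) and was at the lowest value of 1 in control and between 16.3 and 21.6 after TSR by another. The remaining Hnf4a probe sets were not called. The part of hepatocyte RNA in the regulator values was not tested.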

How the data were processed

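Per the labels and the study's methods, biotinylated cRNA of each sample was hybridised to 1 array, and the authors summarised each probe set as a MAS5 signal intensity in Expression Console (version not given in the sources used here), with arrays scaled to a common target (trimmed mean 500.2). The deposited intensities of 22690 probe sets were taken to log2 without further scaling. They hold no probe-level data, and MAS5 detection calls were not used here. MAS5 sets a low or negative difference to a small positive value, so ratios of dim probe sets can be inflated. Array medians lay between 127 and 141, and precision is limited by having 3 arrays per group.

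The 64 control probe sets and the lowest 35% by mean log2 signal were left out. The remaining 14694 were compared with limma 3.58.1 in R 4.3.3 (moderated by eBayes with a trend on signal, two-sided tests, prior degrees of freedom 4.86), with Benjamini-Hochberg adjustment over all of them and a threshold of 0.05. Members below the filter take their adjusted p from the same fit on all 22626 probe sets. Called members that passed only through their TSR signals are given by this fit too. Where every control signal was below the 25th percentile of its array, folds are lower bounds, from the mean log2 TSR signal against the mean log2 of these percentiles. Other folds are ratios of mean signals. With 3 against 3 arrays an exact permutation test cannot go below p = 0.1, so none is quoted. Numbers within a group name samples only: deviations of same-numbered samples correlated with r of 0.02, 0.20 and 0.17, so they were not treated as pairs.

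Genes were named through GEO's platform annotation, and 62 of 62 member identifiers were found in the RefSeq table, with 0 symbols changed. Promoters came from RefSeq GRCm38.p6, and Biopython 1.88 aligned them. The members and gene lists were chosen with earlier results of these data known. Every member could be named; values in every sample were given for called changes of at least 2-fold, the brightest genes, the brightest member of each tested subfamily and the steroidogenic genes, and some further members were added after their values were seen. The alternatives comprised the Student test of the study (called the methods' t-test, on linear and on log2 signals), a fit with no trend, no filter or a filter at 50%, other scalings (quantile normalization, centring on the median), a floor at the 25th percentile, a replicate block, and omission of each array. The same alternatives on the fit without the filter were added with the data in view. The computation was tested on simulated data.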

Additional observations from a re-analysis of the deposited data

Results flagged for a closer look

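Several probe sets match more than 1 P450 gene and were left out of the comparisons above. A probe set shared by Cyp2a5 and Cyp2a4, a liver coumarin hydroxylase and its female-typical copy, gave signals of 11.2, 9.08 and 13.1 in control and 83.9, 89.7 and 91.3 after TSR (mean 88.3). It was at least 3.97-fold higher, with an adjusted p of 0.000214 in limma without the filter. A probe set shared by Cyp4a31 and Cyp4a10 gave 15.3, 19.4 and 1.26 against 31.6, 27.2 and 34.6 (mean 31.1), without overlap and without a call (adjusted p = 0.162). A probe set shared by Cyp4f37 and Cyp4f16 gave 152, 122 and 113 against 188, 163 and 160 (mean 170.2). It was called above the filter (log2 fold change 0.41, adjusted p = 0.0343) and not without the filter (adjusted p = 0.062). These data lay outside the main measurement, and their TSR signals were above the control signals.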

How the results depend on the processing

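Leaving out the lowest 50% of probe sets left 3 higher P450 probe sets and 0 at least 2-fold higher, since fewer dim probe sets were tested, and the median log2 fold change turned from 0.29 to -0.17. Without the filter the median was 0.49, 23 probe sets were higher and 19 were at least 2-fold higher. Median centring, which moved the median of all tested probe sets from 0.04 to -0.07, gave a median of 0.18 for the P450 genes and 1 at least 2-fold fall with or without the filter (Cyp2f2, log2 fold change -1.10). With arrays left out in turn, the counts were 10 to 12 higher, 6 to 8 lower, 7 to 8 at least 2-fold higher and 0 to 1 at least 2-fold lower above the filter, with medians between 0.20 and 0.35. Cyp2f2 passed 2-fold without control replicate 1 or 3 or TSR replicate 1 or 2. Without the filter the counts were 19 to 24 higher, 5 to 6 lower, 17 to 21 at least 2-fold higher and 0 to 1 at least 2-fold lower, and the methods' t-test gave 5 lower. The 5 was found without control replicate 1, 2 or 3 and without TSR replicate 3. Directions turned in uncalled probe sets of 2 genes. The log2 fold change of Cyp46a1 lay between -0.16 and 0.035 with arrays left out (positive without control replicate 1). That of the dimmer Cyp4v3 probe set lay between -0.0048 (without control replicate 2) and 0.19, and was -0.017 after quantile normalization and -0.031 after median centring.

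With the replicate number as a block, 11 P450 probe sets were higher and 8 lower above the filter, no call of the 29 changed, and without the filter 1 Cyp2j5 probe set and the brightest Cyp2b10 probe set lost their calls (21 higher in all). The numbers only name samples. Depth is not defined for arrays, and signals near the 25th percentile limit what can be measured: 21 of the 75 probe sets lay below it on all 6 arrays. Raising signals to that percentile changed no call of the 29.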

Other observations

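Some members that were not called are given here by their means, in control and then after TSR. Cyp2b9 had 21.7 and 27.0, Cyp2b13 had 9.95 and 16.8, and a probe set shared by Cyp3a41a and Cyp3a41b had 2.62 and 4.29. Cyp2b19 had 15.2 and 13.0, and Cyp2g1 had 22.4 and 25.8. The groups overlapped in each of these.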
